A study of Homo sapiens with 9 samples.

Results

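The genes described here encode 5 phosphatidylinositol 3-kinase-related kinases (PIKKs), which are ATM, ATR, PRKDC, MTOR and the kinase-dead relative TRRAP, and 5 factors that assemble them, which are the ATPases RUVBL1 and RUVBL2 and the TTT proteins TELO2, TTI1 and TTI2. The rule names the genes and uses no measured value, although earlier results of these data were known when it was set, and it leaves out SMG1, the kinase of nonsense-mediated decay (NMD). All 10 genes were found among the 58214 genes of the transcript tables, with 103 of the 198775 isoforms. RNA came from K562, a human erythroleukaemia line (spelled K652 in the cell line field), in which 3 groups of 3 libraries were made by poly(A) enrichment 4 days after siRNA transfection in RPMI with 10% FCS. SCR is the control group, whose treatment field reads WT. The other groups, DHX34-kd and UPF1-kd, were depleted of DHX34, an RNA helicase linked to NMD and splicing, or of UPF1, the central helicase of NMD. Neither is a knockout, and the same SCR libraries served as the control of both.

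PIKKs are very large kinases that cannot fold unaided. The TTT complex, made of TELO2, TTI1 and TTI2, holds newly made PIKKs and brings them to the chaperone HSP90 through R2TP, a complex built on a ring of RUVBL1 and RUVBL2. ATM, ATR and DNA-PKcs (the product of PRKDC) respond to DNA damage, MTOR links growth to nutrients, and TRRAP is a scaffold of histone acetyltransferases. RUVBL1 and RUVBL2 also sit in chromatin remodellers such as INO80, and they bind DHX34, which in turn meets SMG1 and UPF1 during NMD.

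The libraries held between 73478797 and 103625443 expected counts, and a member's expected counts per library ran from 1581 for TTI2 to 68763 for PRKDC. DHX34 itself fell from 73.6 ± 1.15 CPM (counts scaled to library size; SD, n = 3) in the control to 31.4 ± 2.26 CPM after its own depletion (log2 fold change -1.23 ± 0.0501, SE, edgeR quasi-likelihood adjusted p = 3.33e-07). After UPF1 depletion, UPF1 went down from 261 ± 8.31 to 106 ± 1.58 CPM (-1.31 ± 0.0308, adjusted p = 2.41e-10). All 10 K562 markers were present, their summed level running from 25685 to 27275 TPM (a length-corrected unit) in SCR, 23649 to 25744 in the DHX34 knockdown and 15611 to 16821 in the UPF1 knockdown, where the 4 globin genes among them were lower, while 1 of 3 lymphoid, 1 of 4 epithelial and 1 of 3 fibroblast markers reached a mean of 1 TPM. DHX34 knockdown replicate 3 stood apart, with a chi-square per gene of 22.7 and 25.1 against its partners, where other pairs within a group gave 6.03 to 10.5. That library had the highest value of its group for 6 of the 10 genes and the lowest for the other 4, so values without it are given where they matter.

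Abundance was first compared between genes in TPM, a scale that divides reads by transcript length before setting each library to a fixed sum. In SCR the order ran from RUVBL2 at 356 ± 1.55 TPM through RUVBL1 at 99.4 ± 1.86 and PRKDC at 80.1 ± 4.70 to TELO2 at 34.8 ± 2.79. TTI1 followed at 24.4 ± 0.840 TPM, MTOR at 21.7 ± 1.05, TTI2 at 13.6 ± 0.126, TRRAP at 8.37 ± 0.774, ATR at 5.22 ± 0.204 and ATM at 4.49 ± 0.785. ATR (5.03 to 5.44 TPM) and ATM (3.68 to 5.25 TPM) were the only neighbours in this order whose SCR libraries overlapped. The summed RNA levels of the 2 ATPases were thus not equal although their proteins form a joint ring. These sums cover all isoforms: in SCR 45.4% of the RUVBL2 TPM was on isoforms annotated as NMD substrates, against 0.257% for RUVBL1. The reference coding form of RUVBL2 was below the main form of RUVBL1, as given with the isoforms. Another form annotated as protein coding, RUVBL2-212, was above that RUVBL1 form. The assembly factors spanned the range from the most abundant member to one below MTOR. Among the kinases PRKDC stood well above the rest.

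In the DHX34 knockdown, none of the 10 genes reached the study's threshold of an adjusted p of 0.005 (edgeR quasi-likelihood test over 17004 genes), at which 10.4% of all genes were called (5.54% higher and 4.86% lower) and 25.9% at an adjusted p of 0.05. Of the 10, 6 had an unadjusted p under 0.05, the same number passed an adjusted p of 0.05, and DESeq2 called 5 (ATM, ATR, PRKDC, RUVBL1 and RUVBL2). In the UPF1 knockdown 4 of the 10 were called, against 25.3% of 17184 genes (12.4% higher and 12.9% lower): ATM rose, and RUVBL1, RUVBL2 and TTI2 fell. In each of these comparisons 3 of the 10 genes had every knockdown library above SCR and 3 had every one below, where 41.5% of all genes for DHX34 and 50.5% for UPF1 did not overlap in either direction. A bulk measurement cannot tell fewer cells with a transcript from less RNA per cell.

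Among the kinases, ATM (ENSG00000149311, chr11:108223044-108369102, plus strand), the kinase that answers double-strand breaks, had the largest differences. Its SCR libraries gave 26.3, 26.5 and 22.8 CPM. The DHX34 knockdown gave 30.6, 31.8 and 38.6 CPM, and the UPF1 knockdown 33.4, 30.2 and 30.9 CPM. Every knockdown library was above every SCR library, where 41.5% (DHX34) and 50.5% (UPF1) of all genes did not overlap SCR in either direction. The log2 fold change was 0.41 ± 0.0867 (adjusted p = 0.00548) for DHX34, or 0.31 without DHX34 knockdown replicate 3, and 0.31 ± 0.0648 (adjusted p = 0.00211) for UPF1. The UPF1 call rested on single libraries: the adjusted p was 0.00627 without SCR replicate 3 (log2 fold change 0.24), 0.0138 without UPF1 knockdown replicate 1 (0.27) and 0.00722 without UPF1 knockdown replicate 3 (0.33).

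ATR (ENSG00000175054, chr3:142449007-142578733, minus strand), the kinase of stalled replication forks, gave 35.3, 36.5 and 41.5 CPM in SCR. It gave 44.6, 44.2 and 46.2 CPM after DHX34 depletion and 40.9, 46.5 and 46.2 CPM after UPF1 depletion. The DHX34 group lay wholly above SCR (41.5% of all genes did not overlap there), whereas 1 UPF1 library fell within the SCR range. The differences were 0.25 ± 0.0572 (adjusted p = 0.00845) and 0.23 ± 0.0627 (adjusted p = 0.011) on the log2 scale. When libraries of the same number were paired in the UPF1 comparison, ATR was called (adjusted p = 0.0023), which made 5 of 10.

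PRKDC (ENSG00000253729, chr8:47773111-47960178, minus strand), the catalytic subunit of the end-joining kinase, gave 581, 648 and 624 CPM in SCR. Its levels were 691, 709 and 787 CPM in the DHX34 knockdown (0.24 ± 0.0539, adjusted p = 0.00842, and 0.18 without replicate 3). After UPF1 depletion they were 667, 656 and 662 CPM (0.09 ± 0.0359, adjusted p = 0.0618). Both groups were above SCR without overlap in counts, where 41.5% and 50.5% of all genes did not overlap SCR. The direction of the means turned on a scale corrected for isoform length, as described with its isoforms.

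MTOR (ENSG00000198793, chr1:11106535-11262556, minus strand) ranged from 142 to 156 CPM in SCR, from 154 to 167 CPM after DHX34 depletion and from 156 to 158 CPM after UPF1 depletion. Its log2 differences of 0.09 ± 0.0437 (adjusted p = 0.172) and 0.05 ± 0.035 (adjusted p = 0.276) did not pass. TRRAP (ENSG00000196367, chr7:98877933-99050831, plus strand) ranged from 91.2 to 105 CPM in SCR, from 99.4 to 125 CPM after DHX34 depletion and from 97.5 to 119 CPM after UPF1 depletion. The groups of TRRAP overlapped, and its differences were 0.15 ± 0.0806 (adjusted p = 0.219; 0.04 without DHX34 knockdown replicate 3) and 0.14 ± 0.0674 (adjusted p = 0.126). With 1 library left out, the UPF1 differences ran from 0.07 (without UPF1 knockdown replicate 1) to 0.21 (without UPF1 knockdown replicate 3) for TRRAP, and, without SCR replicate 1 or 2, were 0.04 or 0.12 for PRKDC and 0.01 or 0.07 for MTOR.

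The ATPases of the R2TP ring had lower counts in both knockdowns. RUVBL1 (ENSG00000175792, chr3:128064778-128153914, minus strand) gave 155, 153 and 161 CPM in SCR, 143, 144 and 136 CPM after DHX34 depletion and 129.7, 138 and 133 CPM after UPF1 depletion. It fell by 0.23 on the log2 scale in the UPF1 knockdown (SE 0.0318, adjusted p = 9.9e-05), and the DHX34 difference of -0.15 ± 0.0388 did not pass (adjusted p = 0.0159). RUVBL2 (ENSG00000183207, chr19:48993562-49015970, plus strand) gave 421, 409 and 419 CPM in SCR, 371, 368 and 334 CPM after DHX34 depletion and 359.5, 363 and 354 CPM after UPF1 depletion. No knockdown library of either gene reached the SCR range, where 41.5% (DHX34) and 50.5% (UPF1) of all genes did not overlap SCR in either direction. RUVBL2 fell by 0.22 in the UPF1 knockdown (SE 0.0254, adjusted p = 2.54e-05), while the DHX34 difference was the same size with a wider error (-0.22 ± 0.0461, adjusted p = 0.00533). Without DHX34 knockdown replicate 3 the RUVBL2 difference was smaller, at -0.17, and was called (adjusted p = 0.00178).

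Of the TTT genes, TTI2 (ENSG00000129696, chr8:33473386-33513185, minus strand) had the clearest difference. Its SCR libraries gave 26.3, 25.7 and 27.0 CPM, the DHX34 knockdown 23.9, 23.3 and 22.7 CPM and the UPF1 knockdown 20.7, 21.2 and 20.7 CPM. The 3 groups did not overlap, where 41.5%, 50.5% and 45.7% of all genes did not in the DHX34, UPF1 and direct comparisons. TTI2 fell by 0.34 in the UPF1 knockdown (SE 0.044, adjusted p = 6.21e-05), and the DHX34 difference was -0.18 ± 0.0487 (adjusted p = 0.0193). TELO2 (ENSG00000100726, chr16:1493344-1510457, plus strand), the scaffold of the complex, gave 102, 103 and 95.3 CPM in SCR, 103, 107 and 112 CPM after DHX34 depletion and 96.3, 96.5 and 92.998 CPM after UPF1 depletion. Both TELO2 groups overlapped SCR, and the adjusted p was 0.158 and 0.118. TTI1 (ENSG00000101407, chr20:37983007-38033461, minus strand) held between 79.5 and 84.7 CPM in all 9 libraries, with log2 differences of 0.01 ± 0.0343 and -0.02 ± 0.0328.

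**Figure D1:**
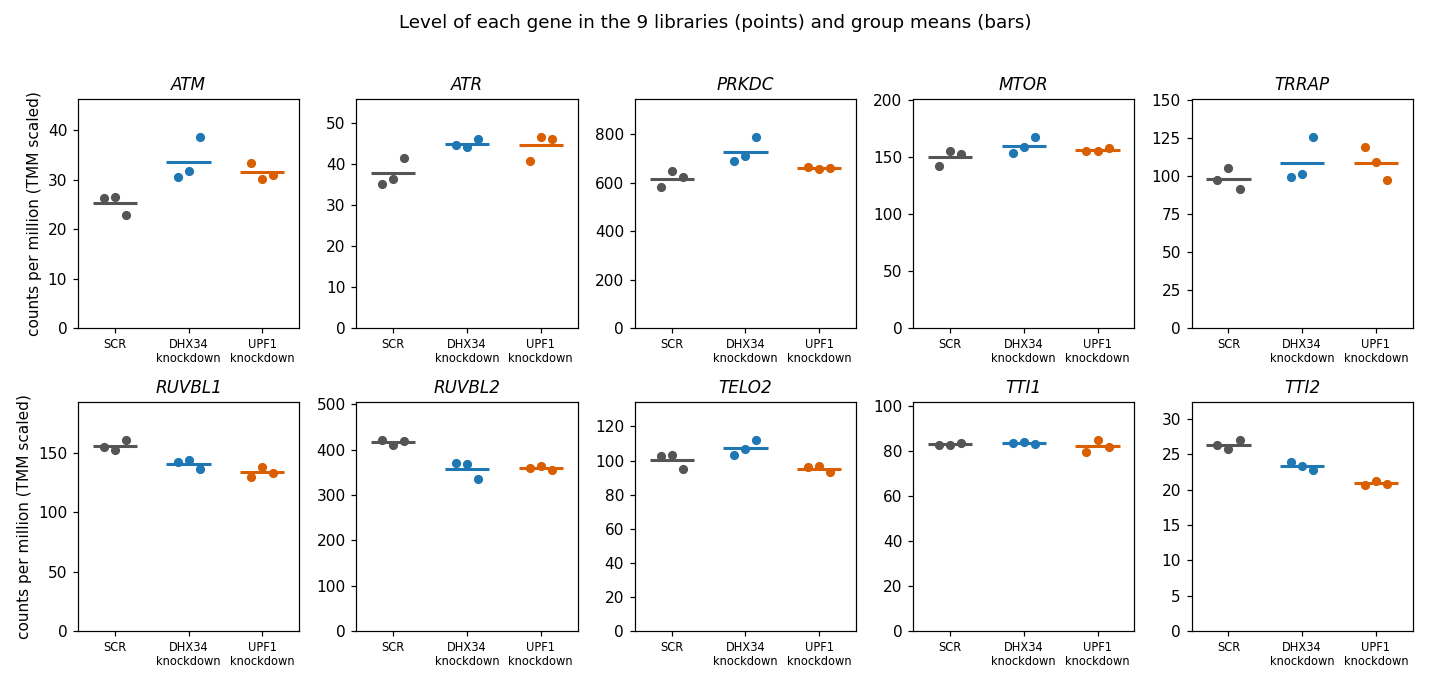
Level of each of the 10 genes in CPM (TMM-scaled expected counts) in each library (points), with the group mean of 3 libraries as a bar, for SCR, DHX34 knockdown and UPF1 knockdown, each axis from 0. RUVBL1, RUVBL2 and TTI2 lie below SCR in both knockdowns without overlap and ATM and PRKDC lie above it, where 41.5% and 50.5% of all genes did not overlap in the 2 comparisons, and TTI1 stays within 79.5 to 84.7 CPM.

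Transcript length moved with the direction of the kinases. The length of a gene was the mean over its isoforms, weighted by their mean TPM in the 9 libraries. It therefore depends on isoform shares, which short isoforms pull down. The mean transcript length of the kinases was 6333 bases for ATM, 7695 for ATR, 9904 for PRKDC, 7640 for MTOR and 11532 for TRRAP, against 1751 for RUVBL1, 1341 for RUVBL2, 2858 for TELO2, 3623 for TTI1 and 2153 for TTI2. Over all genes of at least 8000 bases, the median log2 fold change was 0.16 after DHX34 depletion and 0.13 after UPF1 depletion, genes of 5000 to 8000 bases had 0.13 and 0.10, those of 2000 to 5000 bases had 0.05 and 0.04, and genes under 2000 bases had -0.05 and -0.04. TELO2, TTI1 and TTI2 belong to the class of 2000 to 5000 bases, whose median was opposite in sign to the difference of TTI2. The median of the 5 kinases was 0.24 and 0.14 in the 2 comparisons, and the median of all genes tested was 0.02 in both.

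After the length trend over all genes was subtracted, the kinase medians were 0.06 and -0.02, and no kinase was called in either comparison. ATM was then 0.27 (adjusted p = 0.0248) in the DHX34 knockdown and 0.19 (adjusted p = 0.0319) in the UPF1 knockdown. The falls in the UPF1 knockdown were kept at -0.23 for RUVBL1 (adjusted p = 0.000113), -0.19 for RUVBL2 (adjusted p = 4.9e-05) and -0.37 for TTI2 (adjusted p = 3.6e-05). The part of transcript length in the other values was not tested.

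**Figure D2:**
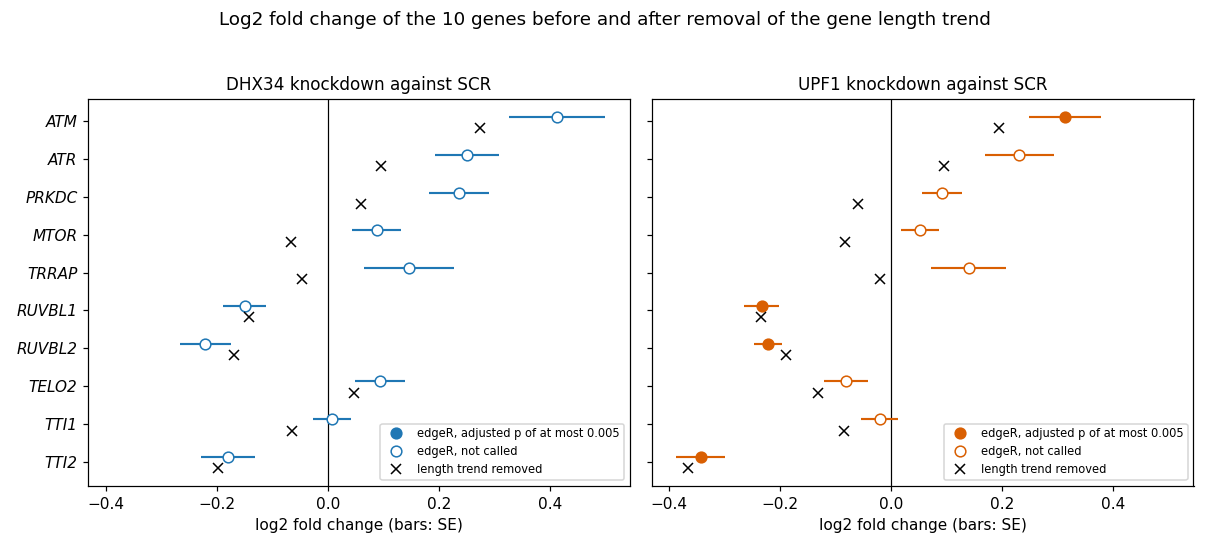
Log2 fold change of the 10 genes against SCR in each knockdown, as fitted (circles with bars of 1 SE, filled where the adjusted p was at most 0.005) and after the length trend over all genes was subtracted (crosses). ATM goes from 0.41 to 0.27 in the DHX34 knockdown, while TTI2 stays at -0.34 and -0.37 in the UPF1 knockdown.

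On the TPM scale the median gene was higher by 0.13 log2 units after DHX34 depletion and by 0.17 after UPF1 depletion, so TPM changes are given relative to that shift. Relative TPM changes in the DHX34 and UPF1 knockdowns were 0.34 and 0.30 for ATM, 0.23 and 0.31 for ATR, -0.13 and -0.19 for RUVBL1, -0.18 and -0.18 for RUVBL2 and -0.20 and -0.31 for TTI2. Relative to that shift, these kept the direction of the count fit. PRKDC, by contrast, was at -0.26 and -0.30 and MTOR at -0.16 and -0.09, the opposite of their counts. With the shift kept in, PRKDC was at -0.12 and -0.13 (limma adjusted p = 0.251 and 0.191). MTOR was then at -0.024 and 0.073 (0.821 and 0.369), so its sign in the UPF1 knockdown rests on the subtraction. RUVBL1 was at 0.0071 and -0.026 (limma adjusted p = 0.870 and 0.542), so its fall in the DHX34 knockdown rests on it too. RUVBL2 was at -0.044 and -0.010 (0.243 and 0.754) and TTI2 at -0.063 and -0.14 (0.407 and 0.0623). The falls of RUVBL1, RUVBL2 and TTI2 were thus smaller or absent without the subtraction. ATM was at 0.48 and 0.47 (0.138 and 0.0681) and ATR at 0.36 and 0.47 (0.0240 and 0.00441).

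The knockdowns were next compared directly, without SCR. None of the 10 genes was called by edgeR at 0.005, where 17.4% of 17435 genes were (9.89% higher and 7.47% lower in the UPF1 knockdown), with 3 at an unadjusted p under 0.05 and 1 call by DESeq2 (TELO2). TELO2 was lower in the UPF1 than in the DHX34 knockdown by -0.16 ± 0.0383 (adjusted p = 0.00862), and after removal of the length trend it was called at -0.18 (adjusted p = 0.00288). TTI2 differed by -0.15 ± 0.0469 (adjusted p = 0.0354) and PRKDC by -0.13 ± 0.0467 (adjusted p = 0.0579). These 3 genes had no overlap between the knockdowns, as did 45.7% of all genes. The larger fall of TTI2 after UPF1 depletion was therefore not shown to differ from that after DHX34 depletion at the threshold used.

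The isoforms within each gene were then examined as shares of the gene's TPM. In the DHX34 knockdown, PRKDC (adjusted p = 0.0205) and MTOR (adjusted p = 0.0327) changed isoform usage among 8 genes with enough isoforms to test, by limma on arcsine-transformed shares at 0.05, where 0.982% of genes were called. With libraries of the same number paired, neither was called (adjusted p = 0.195 for PRKDC and 0.229 for MTOR). In both genes the full-length coding isoform took a larger share and a shorter isoform of the 3′ end a smaller one, which passed for PRKDC-207 and not for MTOR-202. The UPF1 libraries had like values, but no gene was called in that comparison (2.16% of all genes were): 3 had an unadjusted p under 0.05, and edgeR's diffSpliceDGE called 3 (PRKDC, MTOR and RUVBL2).

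PRKDC-207 is an 834-base transcript annotated as a retained intron, made of 59 bases of the intron before exon 83, exons 83 to 85 and the first part of exon 86. Its share of PRKDC TPM was 44.9%, 42.1% and 40.4% in SCR and 20.5%, 13.95% and 16.4% in the DHX34 knockdown (isoform adjusted p = 0.0377, with 0.352% of all isoforms passing). After UPF1 depletion it was 29.1%, 15.1% and 18.6%. No knockdown library reached the SCR range, but the share of all isoforms separated in this way is not given, here or for MTOR-202 below. The coding isoform PRKDC-201 made up 56.0% ± 2.42 in SCR, 81.5% ± 3.28 after DHX34 depletion and 77.4% ± 6.84 after UPF1 depletion.

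The short length of PRKDC-207 makes few reads weigh heavily on the TPM scale. It held 382 to 1648 expected counts per library, against 39073 to 67660 for PRKDC-201. PRKDC-207 itself went from 34.0 ± 2.58 TPM in SCR to 12.5 ± 2.65 in the DHX34 knockdown (log2 fold change -1.60 ± 0.162, edgeR adjusted p = 0.0123, DESeq2 2.67e-17) and 15.6 ± 7.14 in the UPF1 knockdown (-1.37, adjusted p = 0.0387). Neither value passed 0.005 in edgeR. Total PRKDC was thus higher in counts and lower per length, and counts scaled to isoform length gave -0.29 for DHX34 and -0.35 for UPF1.

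MTOR-202, also a retained intron transcript, has 4017 bases and begins with 781 bases of intron 38 before running through exons 39 to 58. The junction where that intron meets the exon is shown because it is spliced in MTOR-201 and read through in MTOR-202, with exon 39 in capitals (GRCh38, chr1:11130763-11130792, minus strand).
MTOR intron 38 to exon 39: tttctccccaaccagGCCTGGCATGCGTGG
The share of MTOR-202 was 21.9%, 6.89% and 20.9% in SCR, 3.17%, 3.64% and 3.75% after DHX34 depletion and 1.76%, 3.20% and 2.63% after UPF1 depletion. SCR replicate 2 lay far below its partners yet above all 6 knockdown libraries, and the share did not pass (adjusted p = 0.291 for DHX34). MTOR-201, the coding form, went from 70.1% ± 4.45 to 92.4% ± 1.04 in the DHX34 knockdown (isoform adjusted p = 0.0377), and it made up 87.7% ± 5.24 in the UPF1 knockdown. With the shift of the median gene kept in, its log2 TPM differences for DHX34 and UPF1 were 0.36 and 0.39 (limma adjusted p = 0.0907 and 0.0265). In counts they were 0.21 and 0.14 (edgeR adjusted p = 0.206 and 0.279).

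Isoforms that hold only 1 end of a gene were lower over other genes too. Over 4147 other genes with a reference transcript of at least 5000 bases, the 3215 isoforms that start past the midpoint took 2.36%, 2.04% and 2.05% of the TPM in SCR. They took 1.45%, 1.31% and 1.63% after DHX34 depletion and 1.69%, 1.41% and 1.44% after UPF1 depletion. Isoforms that end before the midpoint took 49.1% to 49.5% in SCR and 47.7% to 48.98% in the knockdowns. For both kinds all knockdown libraries were below all SCR libraries. The part of this in the values of PRKDC-207 and MTOR-202 was not tested. The 2 usage calls in the DHX34 knockdown did not survive the loss of most single libraries: without SCR replicate 2 only MTOR was called (adjusted p = 0.0235), without DHX34 knockdown replicate 1 only PRKDC (0.0292), and without any one of the other 4 libraries neither was.

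**Figure D3:**
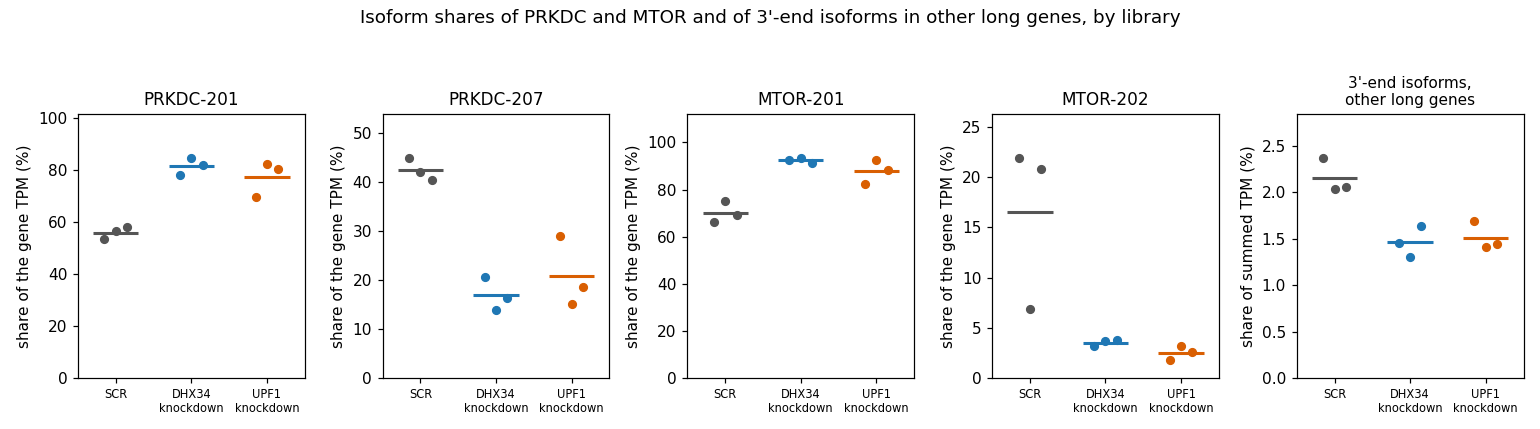
Percent of the TPM of PRKDC and MTOR carried by their coding and 3′-end isoforms, and percent of the summed TPM of other long genes on 3′-end isoforms, in each library (points) with the mean of each group of 3 as a bar. PRKDC-207 falls from a mean of 42.4% in SCR to 17.0% after DHX34 depletion and is at 20.9% after UPF1 depletion, and MTOR-202 is at 16.5%, 3.52% and 2.53%.

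RUVBL2 was split among several isoforms. In SCR, RUVBL2-212 took 39.6% of its TPM, RUVBL2-201 37.8%, the MANE isoform RUVBL2-206 (the reference form shared by RefSeq and Ensembl) 11.2% and RUVBL2-208 5.53%. RUVBL2-201 and RUVBL2-208 are annotated as NMD substrates. RUVBL2-201 leaves exon 7 by a donor 11 bases upstream of the reference donor, meets a TGA after 259 codons in exon 10 and has 5 junctions after it. RUVBL2-208 enters exon 4 by an acceptor 70 bases upstream, meets a TAG after 50 codons and has 11 junctions after it, whereas the stop of RUVBL2-206 comes after 463 codons with 0 junctions after it. RUVBL2-212, annotated as protein coding, begins in exon 4, lacks exon 13 and ends in exon 14. The competing splice sites and the early stop of RUVBL2-208 are shown in GRCh38, plus strand, at chr19:49004262-49004291, chr19:49004192-49004221, chr19:49004221-49004250, chr19:49009868-49009897 and chr19:49009857-49009886 in that order. Capitals mark exon, and in the third line the stop codon.
exon 4 acceptor of the MANE isoform: gcctcccacccacagGCTTCGCAAGGCATG
upstream acceptor of RUVBL2-208: cttccatctcactagCTTCCTGATGTGGTA
stop codon of RUVBL2-208: agaaatgccatggTAGccccacaggaaatc
exon 7 donor of the MANE isoform: CAAGGTCCAGGCCGGgtgagcagtcagggg
exon 7 donor of RUVBL2-201: CTGACCAAGGACAAGgtccaggccgggtga

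RUVBL2-208, the form with the early TAG, had 17.98, 22.7 and 18.4 TPM in SCR and 37.3, 44.6 and 38.4 TPM in the UPF1 knockdown. The DHX34 knockdown gave 22.1, 10.3 and 16.6 TPM. All UPF1 libraries were above all others, while the DHX34 libraries overlapped SCR. The share of all isoforms without overlap is not given, so how common this is cannot be read here. The log2 fold change was 0.79 ± 0.104 in the UPF1 knockdown, just outside the threshold in edgeR (adjusted p = 0.00685) and inside it in DESeq2 (7.17e-10). Against the DHX34 knockdown the difference was 1.25 ± 0.262 (edgeR adjusted p = 0.0475, DESeq2 5.58e-06), and in the DHX34 knockdown it was -0.43 (adjusted p = 0.545), or -0.74 without DHX34 knockdown replicate 1 and -0.21 without replicate 2. Its share of RUVBL2 was 5.53% ± 0.716 in SCR, 4.73% ± 1.66 after DHX34 depletion and 11.4% ± 0.982 after UPF1 depletion.

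The second form with an early stop, RUVBL2-201, went the other way in the UPF1 knockdown. Of 58 isoforms tested, 3 were called by edgeR at 0.005 (2.59% of 62497 isoforms were, 1.62% lower), and all 3 fell: RUVBL2-201 from 134 ± 4.87 to 119.7 ± 2.95 TPM (-0.41 ± 0.0445, adjusted p = 0.0035), RUVBL2-212 from 141 ± 3.64 to 127 ± 4.69 TPM (-0.39 ± 0.0394, adjusted p = 0.00291) and RUVBL1-201 (-0.29 ± 0.0352, adjusted p = 0.00497). With libraries paired by number none of the 3 passed (0.0207, 0.0323 and 0.0377). With 1 library left out, RUVBL2-201 passed in 1 of 6 fits (without SCR replicate 2, adjusted p = 0.00381) and RUVBL2-212 and RUVBL1-201 in 0 of 6. RUVBL1-201, which carried 96.9% to 97.7% of RUVBL1 in each group, overlapped between groups on the TPM scale, at 97.2 ± 1.63 and 94.6 ± 2.89. RUVBL2-206 was 39.97 ± 1.75 TPM in SCR and 33.6 ± 3.06 TPM in the UPF1 knockdown (-0.50, adjusted p = 0.00824). Salmon assigned reads with a RUVBL2-206 of 2009 bases where GENCODE 44 gives 1545, so its share depends on that older model.

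In the DHX34 knockdown none of the 58 isoforms was called by edgeR (0.0463% of all isoforms were), with 15 at an unadjusted p under 0.05 and 5 calls by DESeq2. In the direct comparison 0 of 58 were called by edgeR (1.05% of all), with 8 at an unadjusted p under 0.05 and 3 by DESeq2. In the direct comparison of usage 0 of 7 genes were called (1.15% of all), with 1 at an unadjusted p under 0.05 and 1 by diffSpliceDGE, RUVBL2.

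**Figure D4:**
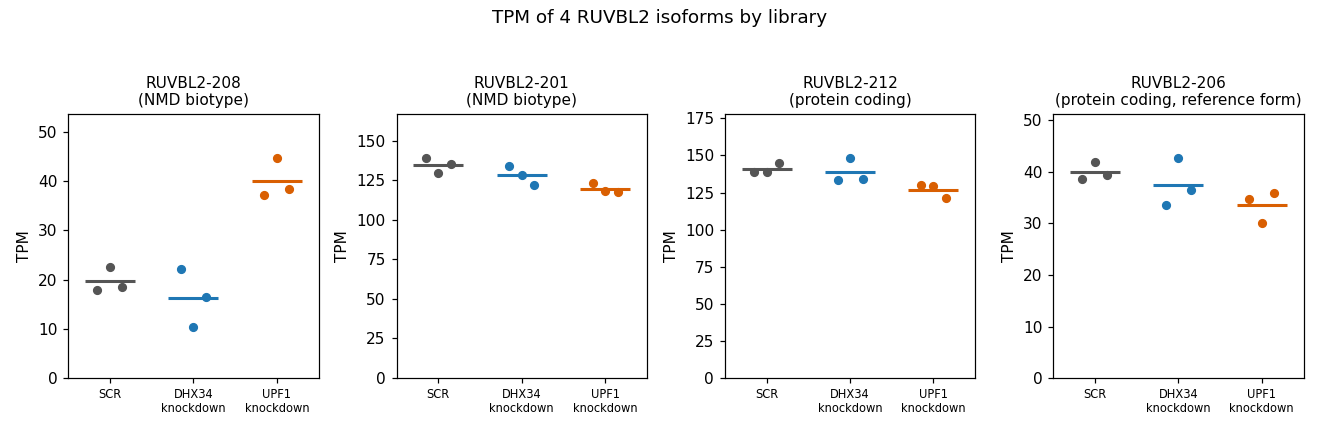
TPM of RUVBL2-201, RUVBL2-206, RUVBL2-208 and RUVBL2-212 in each library (points), with the mean of each group of 3 as a bar and each axis from 0. RUVBL2-208 is at 40.1 TPM in the UPF1 knockdown against 19.7 in SCR and 16.3 in the DHX34 knockdown, and RUVBL2-201 falls from 134 to 119.7 TPM.

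ATR, TELO2 and TTI1 each had 1 main isoform. ATR-201 made up between 88.1% and 93.9% of ATR in the 3 groups, TELO2-201 between 78.3% and 81.6% of TELO2, and TTI1-201 between 81.1% and 87.0% of TTI1. TTI2 was divided among TTI2-201, TTI2-202 and TTI2-204, which took 50.2%, 24.0% and 18.1% of its TPM in SCR and 47.4%, 25.9% and 20.1% in the UPF1 knockdown, without a call. TRRAP-206 went from 41.8% ± 9.27 in SCR to 26.6% ± 2.71 in the DHX34 knockdown and TRRAP-201 from 27.1% ± 11.4 to 42.99% ± 4.90, without a call. After UPF1 depletion these were at 29.4% ± 1.75 and 41.2% ± 2.71, so that TRRAP-201 had the larger mean share in both knockdowns and TRRAP-206 in SCR. ATM had no dominant form: ATM-201, ATM-203, ATM-206 and ATM-210 each passed 10% in some group, with SDs up to 22.3 percentage points.

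The NMD question was also asked of each gene as a whole, by the share of its TPM on isoforms annotated as NMD substrates. Of the 10 genes, 5 had enough of such isoforms to test, and limma at 0.05 called 0 of 5 in the DHX34 knockdown (0.241% of 3325 genes were called), 0 of 5 in the UPF1 knockdown (14.5% of 3557) and 0 of 5 in the direct comparison (13.2% of 3592). The unadjusted p was under 0.05 for 1, 0 and 1 of them, and limma on log2 ratios called 0 in each. Over all genes the median share was higher by 1.73 percentage points in the UPF1 knockdown and by 0.05 in the DHX34 knockdown.

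RUVBL2 had the largest such share among the 10. It was 46.3%, 44.9% and 45.1% in SCR, 47.0%, 41.8% and 43.9% after DHX34 depletion and 48.2%, 48.4% and 48.1% after UPF1 depletion (adjusted p = 0.173 for UPF1). The UPF1 libraries lay above SCR without overlap and close together, with RUVBL2-208 higher and RUVBL2-201 lower as given above. The mean was higher by 2.79 percentage points, where the median over all genes tested was higher by 1.73. The share of all genes without overlap on this measure is not given. ATR had 2.83% in SCR and 8.27% in the UPF1 knockdown (adjusted p = 0.186), from isoforms with few counts. TRRAP was at 7.36% ± 1.21, 4.50% ± 0.588 and 5.94% ± 0.331 in SCR, DHX34 and UPF1 knockdown, TELO2 at 6.68%, 7.09% and 6.47%, and ATM at 21.5% ± 9.25, 33.0% ± 14.8 and 34.3% ± 5.90. The ATM value is mostly ATM-201, whose model has 13147 bases in the tables and 12717 in GENCODE 44, so its class may differ between releases.

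Genes that work with these proteins were taken from 3 lists of 53 genes, of which 52 were tested (the MTOR inhibitor DEPTOR was not). In the DHX34 knockdown 1 rose and 7 fell, or 15.4% called against 10.4% of all genes. In the UPF1 knockdown 4 rose and 16 fell, or 38.5% against 25.3%. Their medians were -0.06 and -0.05 against 0.02 for all genes tested in each comparison.

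Among 11 partners in R2TP, its prefoldin-like module and HSP90, 0 rose and 4 fell in the DHX34 knockdown, and 1 rose and 6 fell in the UPF1 knockdown. That was 36.4% and 63.6% of the 11, where 10.4% and 25.3% of all genes were called. Limma on TPM called 1 and 4 of the 11. With 1 library left out, the calls over all 3 lists ran from 3 to 8 in the DHX34 knockdown and from 17 to 20 in the UPF1 knockdown. PFDN2, a prefoldin subunit that R2TP shares, fell from 100.3 ± 3.28 CPM to 75.9 ± 2.31 (-0.40 ± 0.0416, adjusted p = 8.17e-05) and to 72.0 ± 3.02 (-0.49 ± 0.0392, adjusted p = 1.97e-06). UXT, also of the prefoldin-like module, fell by 0.30 (adjusted p = 0.0018) and by 0.37 (adjusted p = 2.16e-05), and PFDN6 fell by 0.28 in the UPF1 knockdown (adjusted p = 9.54e-05). PDRG1, another subunit, went in opposite directions: from 67.7 ± 2.84 CPM it fell to 54.8 ± 3.54 in the DHX34 knockdown (-0.31 ± 0.0547, adjusted p = 0.00224) and rose to 100.2 ± 2.87 in the UPF1 knockdown (0.56 ± 0.0389, adjusted p = 6.46e-07). The difference between the knockdowns was 0.88 (adjusted p = 2.41e-07). POLR2E, an RNA polymerase subunit in the same module, was 264 CPM in the DHX34 and 321 CPM in the UPF1 knockdown (0.29, adjusted p = 6.16e-05).

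**Figure D5:**
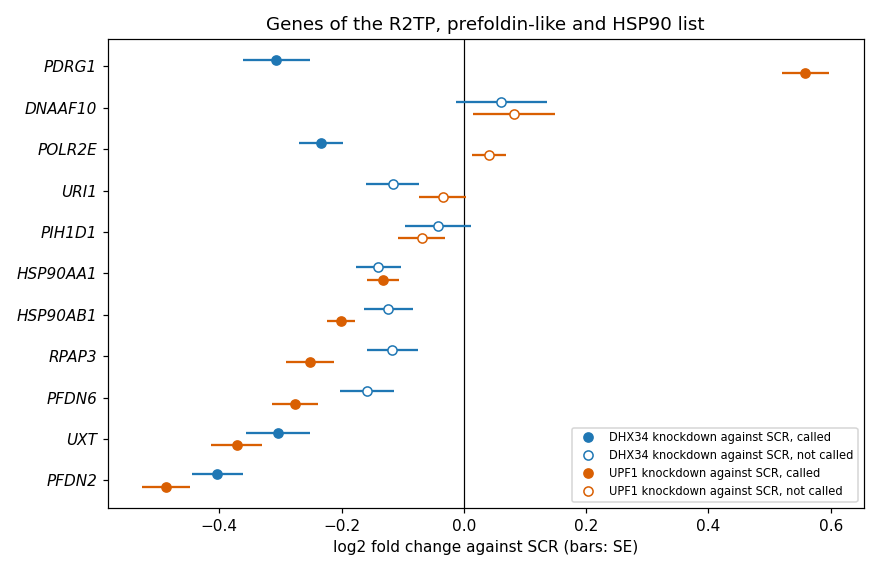
Log2 fold change against SCR of the 11 partners in R2TP, its prefoldin-like module and HSP90 in both knockdowns, with bars of 1 SE and filled points where the adjusted p was at most 0.005. PFDN2 is at -0.40 and -0.49, and PDRG1 is at -0.31 after DHX34 depletion and 0.56 after UPF1 depletion.

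Of 18 partners of the kinases tested, none was called by edgeR in the DHX34 knockdown, with 9 at an unadjusted p under 0.05 and 0 called by limma on TPM. In the UPF1 knockdown 3 rose and 3 fell. That was 0% and 33.3% of the 18, where 10.4% and 25.3% of all genes were called. The rises were HUS1, of the clamp that activates ATR (9.39 ± 0.390 to 13.7 ± 1.88 CPM, 0.54, adjusted p = 0.000516), RPTOR, which defines MTOR complex 1 (0.29, adjusted p = 5.23e-05), and RAD50, of the break sensor that recruits ATM (0.19, adjusted p = 0.00175). The falls were ETAA1, an activator of ATR (-0.28, adjusted p = 0.00217), and the Ku subunits that recruit DNA-PKcs, XRCC5 (464 to 393 CPM, -0.25, adjusted p = 2.94e-05) and XRCC6 (599 to 527 CPM, -0.19, adjusted p = 8.89e-05). Both Ku genes fell, whereas PRKDC, the catalytic subunit they recruit, was not called. In the direct comparison HUS1 (0.63, adjusted p = 0.00061), the clamp loader RAD17 (0.31, adjusted p = 0.000218) and RPTOR (0.17, adjusted p = 0.00321) were higher in the UPF1 knockdown.

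Of 23 chromatin partners of RUVBL1, RUVBL2 and TRRAP, 1 rose and 3 fell in the DHX34 knockdown, and 0 rose and 7 fell in the UPF1 knockdown. That was 17.4% and 30.4% of the 23, where 10.4% and 25.3% of all genes were called. Limma on TPM called 1 and 4 of the 23. EP400, a remodelling ATPase found in a complex with RUVBL1, RUVBL2 and TRRAP, was the rise (94.9 ± 3.91 to 119.9 ± 8.24 CPM, 0.33 ± 0.051, adjusted p = 0.000904). MEAF6 and MORF4L1, subunits of the same acetyltransferase complex, fell in the DHX34 knockdown by 0.30 (adjusted p = 0.000431) and by 0.27 (adjusted p = 0.000748), and INO80C fell by 0.26 (adjusted p = 0.00282). With the length trend removed, EP400 (0.16, adjusted p = 0.0106) and INO80C (-0.16, adjusted p = 0.0235) were not called. The falls with the largest size after UPF1 depletion were INO80C (-0.49, adjusted p = 6.44e-06), MEAF6 (-0.30, adjusted p = 4.98e-05) and the histone chaperone VPS72 (-0.28, adjusted p = 0.000117). INO80C was also lower in the UPF1 than in the DHX34 knockdown (-0.21, adjusted p = 0.00407), while ING3 (0.24, adjusted p = 0.000714) and INO80E (0.22, adjusted p = 0.000775) were higher.

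Across the 9 libraries, the gene whose log2 CPM followed each member most closely among 10053 genes was named as a description, since all points share the same libraries and groups. For PRKDC it was RICTOR, the defining subunit of MTOR complex 2 (Pearson r = 0.984), for RUVBL2 the ribosomal protein gene RPS9 (0.995), for RUVBL1 the respiratory chain gene COX5A (0.992) and for TTI2 the nuclear importin KPNA2 (0.997). ATM was nearest to ACAP3 (0.986), ATR to AP1G1 (0.981), MTOR to TRIM33 (0.967), TRRAP to EME2 (0.961), TELO2 to GTF3C2-AS2 (0.982) and TTI1 to ZFP82 (0.936). Within the 10 genes the closest pairs were RUVBL1 with TTI2 (0.965) and PRKDC with MTOR (0.918).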

How the data were processed

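Poly(A) RNA of K562 cells was sequenced in 9 libraries, 3 per group. The authors quantified reads with salmon (GC bias corrected, Ensembl 93, GRCh38), and the deposited tables give an expected count, a TPM and an effective length per transcript. The authors' sleuth tables (p-values, q-values and an effect size) and SUPPA2 tables (splicing differences with p-values and mean TPM) hold their own comparisons and were not used.

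Transcripts were joined by identifier to GENCODE 44 (GRCh38), which matched 97.9% of them and at least 98.08% of the counts of each library. Of the matched transcripts 85.8% had the same length. Expected counts were summed per gene, rounded, filtered (filterByExpr, minimum count 10), TMM-scaled and tested with edgeR 4.0.16 (R 4.3.3) by the quasi-likelihood test on the 6 libraries of each comparison, with Benjamini-Hochberg adjustment over all genes and calls at 0.005. CPM are TMM-scaled. Isoform shares and shares on isoforms with the NMD biotype were tested with limma 3.58.1 after an arcsine square root transform, for genes of at least 1 TPM and isoforms of at least 5% (NMD share at least 1%), with Simes p per gene and calls at 0.05. For the length trend, the log2 CPM of each library was taken as a deviation from the mean of the libraries compared. It was smoothed over log10 of the mean transcript length, weighted by isoform TPM over the 9 libraries. The curve of each library, fitted over all genes tested, entered the edgeR fit as an offset. The share on 3′-end isoforms was added after the data were seen. Scripts were tested on simulated data.

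Library totals were 73478797 to 103625443 expected counts. The authors call the replicates biological, but nothing in the labels says that they came from separate cultures. The p-values measure the spread between these libraries. No libraries agreed within sampling noise. Replicate numbers come from the labels. For UPF1 against SCR the deviations of same-numbered libraries correlated at 0.519, 0.153 and 0.316, while SCR replicate 3 with UPF1 knockdown replicate 2 reached 0.230. A pairing by number is thus inferred from these values only. The values given come from the fit without pairing. The value with the number as a block is given where it changed a call of a member gene or of an isoform level, and as counts for the partners.

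All 10 genes are named. Of the partner lists, the 3 called genes with the largest rise and the 3 with the largest fall per comparison are named, and isoforms with at least 10% of a gene in any group or called, together with the gene most correlated with each member among those of at least 5 CPM. Members and lists were chosen with earlier results of these data known. Marker lists summed to 15611 to 27275 TPM (K562), 1.50 to 3.89 (lymphoid), 68.1 to 80.4 (epithelial, from EPCAM) and 1.68 to 2.37 (fibroblast). Alternatives were DESeq2 1.42.0, other scalings, filters, TPM with a pseudocount of 0.5 or 0.1, length-scaled counts, all 9 libraries in 1 fit and each library left out.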

Additional observations from a re-analysis of the deposited data

Results flagged for a closer look

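For 9 of 52 partner genes the difference between the UPF1 and DHX34 knockdowns was itself tested and passed (edgeR, adjusted p of at most 0.005, 3 libraries against 3), or 17.3% where 17.4% of all genes were called, so the count is no result about the partners. As log2 differences, UPF1 knockdown minus DHX34 knockdown, PDRG1 stood at 0.88, HUS1 at 0.63, RAD17 at 0.31, POLR2E at 0.29, ING3 at 0.24, INO80E at 0.22, RPTOR at 0.17 and INO80C at -0.21, and MAPKAP1, named here after its value was seen, at 0.15. PDRG1 measured 67.7 CPM with SCR siRNA, 54.8 with DHX34 siRNA and 100.2 with UPF1 siRNA, and was the only one of them called in opposite directions against SCR. None of the 10 kinases and assembly factors was called in this comparison by edgeR, with 3 at an unadjusted p under 0.05 and 1 (TELO2) called by DESeq2.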

How the results depend on the processing

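The number of the 10 genes called in the DHX34 knockdown was 0, and it was 1 with RLE factors, 3 with all 9 libraries in 1 fit, 4 without the low-count filter, 5 with DESeq2 and 6 at an adjusted p of 0.05. In the UPF1 knockdown it was 4, and 1 with limma on TPM at either pseudocount. At the pseudocount of 0.5 that 1 was ATR (limma adjusted p = 0.00441), which edgeR did not call. The 4 genes called by edgeR did not pass there (limma adjusted p = 0.0681 for ATM, 0.542 for RUVBL1, 0.754 for RUVBL2 and 0.0623 for TTI2). In the direct comparison it was 0, and 1 each with DESeq2, without the filter and with the length trend removed, and 2 at 0.05. Of the partners, 8 were called in the DHX34 knockdown, 15 with DESeq2 and 2 with limma on TPM. Limma on TPM, an alternative chosen after seeing the data, called 14 for UPF1 and 4 for direct, where edgeR called 20 and 9. Isoforms called were 5, 8 and 3 with DESeq2 for DHX34, UPF1 and direct, where edgeR gave 0, 3 and 0, and the UPF1 count was 1 with limma on TPM and 0 with the replicate block. Genes with changed usage were 2 in the DHX34 knockdown and 0 with the replicate block, and diffSpliceDGE gave 3 for UPF1 and 1 for direct.

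Leaving out each library in turn gave 0 to 1, 3 to 4 and 0 to 1 of the 10 genes (DHX34, UPF1, direct), 3 to 8, 17 to 20 and 4 to 10 partners, 0, 0 to 2 and 0 isoforms, 0 to 1, 0 to 1 and 0 genes with changed usage, and 0 genes by NMD share. No log2 value against SCR of the 10 genes or of the 9 isoforms of PRKDC, MTOR, RUVBL1 and RUVBL2 compared changed sign in these, while PRKDC-207 between the knockdowns, 0.26, was -0.17 without UPF1 knockdown replicate 1.

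Values that changed sign in the DHX34 knockdown were PRKDC -0.29, MTOR -0.19 and TTI1 -0.032 with length-scaled counts, MTOR -0.065, TRRAP -0.046 and TTI1 -0.064 with the length trend removed, TTI1 -0.0006 with DESeq2, PRKDC -0.12, MTOR -0.024 and RUVBL1 0.0071 with TPM at the pseudocount of 0.5 (-0.12, -0.025 and 0.0072 at 0.1), and RUVBL1-201 0.0017 with limma on TPM. In the UPF1 knockdown they were PRKDC -0.35 and MTOR -0.14 with length-scaled counts, PRKDC -0.060, MTOR -0.083 and TRRAP -0.020 with the trend removed, and PRKDC -0.13 (pseudocount 0.5) or -0.14 (0.1), TELO2 0.17 and TTI1 0.12 with TPM, which carries the shift of the median gene. The cause was not tested otherwise.

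Same-numbered libraries correlated at -0.07, -0.17 and -0.40 in the DHX34 comparison and at -0.17, 0.14 and -0.20 in the direct one. These values did not show a pairing by number, but they cannot exclude one. They rest on deviations within small groups, and the DHX34 library that stood apart weighs on them in both comparisons. With the replicate block the called partners were 6, 23 and 6 (DHX34, UPF1, direct) instead of 8, 20 and 9, and among the 10 genes no call changed but that of ATR. Depth did not fall under 1581 expected counts for any of the 10 genes, but ATR isoforms with the NMD biotype rested on few counts.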
